A study of Mus musculus with 16 samples.

Results

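Interferon-treated Jak2VF stem-cell-enriched cells were set against untreated wild-type cells of the same kind on Illumina bead arrays. The members were the 4 arrays described as Jak2VF interferon and the 4 described as WT vehicle, 8 of the 16 arrays in all, and 4 Jak2VF vehicle arrays served as the untreated starting point of the mutant. Jak2VF mice carry a knock-in of an activating Jak2 mutation and the CD45.2 allele, and received vehicle or interferon alpha (10000 units each day) for 4 weeks. WT mice carried CD45.1 and normal Jak2. The strain is written C57B16 in the labels, the cells are named as HSC, and the surface gate is not given in the sources used here. Between the Jak2VF interferon and WT vehicle groups the genotype, the CD45 allele and the treatment all differ, so their effects cannot be told apart within this contrast. The labels do not tie arrays to animals, and the p-values therefore cover only array-to-array spread, which may be technical.

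Jak2 is a tyrosine kinase that carries signals from the erythropoietin receptor, among others, to STAT transcription factors. The mutant kinase signals without a ligand bound to the receptor and gives mice a red cell overproduction that resembles polycythemia vera. Interferon alpha is used as a treatment in that disease. Haematopoietic stem cells sit above the erythroid, megakaryocytic and granulocytic lineages, and interferon is known to bring dormant stem cells into cycle. The comparison asks whether 4 weeks of interferon placed mutant cells nearer to, or farther from, untreated normal cells.

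The arrays differed in brightness before any normalization. The mean intensity of an array, on the scanner's linear scale, was 602, 874, 1130 and 928 on the Jak2VF interferon arrays, against 246, 414, 162 and 398 on the WT vehicle arrays. The groups did not overlap, and their log2 means differed by 1.598 (two-sided exact permutation p = 0.0286, the smallest that 4 against 4 arrays allow). The difference was 1.18 among the arrays of slide 1 and 2.01 among those of slide 2. Probes detected above the negative controls (detection p under 0.05) numbered 12124 to 12531 of 25697 on the Jak2VF interferon arrays, and 8209 to 11994 on the WT vehicle arrays. WT vehicle array 3 stood apart: it was the dimmest, had the fewest detected probes, and lay farther from the mean of the other 3 than any other WT vehicle array did. Jak2VF vehicle arrays averaged 498 ± 100 in intensity (SD, n = 4), between 884 ± 218 for Jak2VF interferon and 305 ± 122 for WT vehicle.

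**Figure D1:**
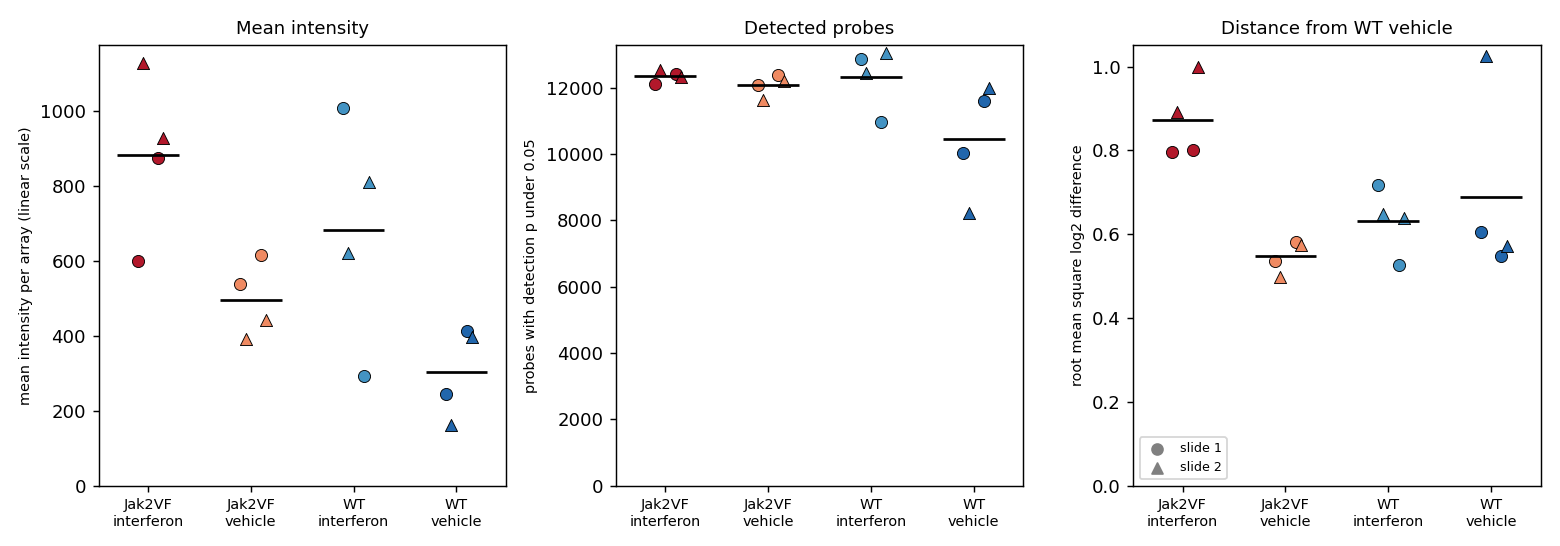
Mean intensity (linear scale), number of probes with a detection p under 0.05, and distance from the WT vehicle mean (root mean square log2 difference over 9680 genes) for each of the 16 arrays. Circles are slide 1, triangles slide 2 and bars group means, and a WT vehicle array is set against the mean of the other 3. The Jak2VF interferon arrays sit between 602 and 1130 in intensity, above all WT vehicle arrays at 162 to 414, and at distances of 0.796 to 0.9998, above all Jak2VF vehicle arrays at 0.498 to 0.580.

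After interferon the mutant cells lay farther from untreated WT cells than untreated mutant cells did. The distance of an array was taken as the root mean square log2 difference from the mean of the WT vehicle arrays over the 9680 genes tested. It was 0.796, 0.801, 0.892 and 0.9998 for Jak2VF interferon arrays, against 0.535, 0.580, 0.498 and 0.574 for Jak2VF vehicle arrays. No treated array was as near as any untreated mutant array, and the means differed by 0.325 (two-sided exact permutation p = 0.0286, the smallest possible). Measured from the WT vehicle arrays of its own slide, the difference was 0.253 on slide 1 and 0.363 on slide 2, where 2 against 2 arrays cannot give a p below 0.333. Without the 3 dimmest arrays of the series it was 0.332. WT vehicle arrays lay 0.607, 0.549, 1.03 and 0.571 from the mean of the other 3, so the third array, the dimmest, was itself farther away than every treated mutant array. Without it the difference was 0.342, from means of 0.802 for Jak2VF interferon and 0.461 for Jak2VF vehicle. The mutant groups also differed in brightness, treated arrays exceeding untreated ones by 0.81 in mean log2 mean intensity (exact permutation p = 0.0571). Their intensities overlapped, at 602 to 1130 for Jak2VF interferon and 391 to 616 for Jak2VF vehicle arrays. The part of brightness in the distance was not tested.

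Across genes, Jak2VF interferon arrays correlated with WT vehicle arrays at a median r of 0.917 over 16 pairs of arrays, with a range of 0.821 to 0.956. Jak2VF vehicle arrays correlated with the same WT vehicle arrays at a median of 0.966, with a range of 0.883 to 0.982. WT vehicle arrays correlated with one another at 0.900 to 0.985, and Jak2VF interferon arrays with one another at 0.981 to 0.992, all as descriptions across genes measured on shared arrays.

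Gene by gene, 4381 of 9680 genes (45.3%) differed between Jak2VF interferon and WT vehicle cells at a limma adjusted p under 0.05, which is what "called" means here. Of these, 2297 were higher (23.7% of all tested) and 2084 lower (21.5%), and 1804 differed by at least 1 on the log2 scale. The 2 groups of 4 arrays did not overlap at all for 3683 genes (38% of all tested). The median difference over all genes was 0.05. How the calls split depended on the scaling between arrays. Higher genes made up 52.4% of calls after quantile normalization, 40% after centring each array on the median of its detected probes, and 97.6% after centring on the median of all probes, where the median gene stood at 1.43. Under that last scaling the medians of the eosinophil (-2.89), MHC class II (-0.22), granulocyte (-0.03), stem cell (0.23) and megakaryocyte (0.37) lists described next lay below 1.43, and those of the Myc target (2.55), erythroid membrane (2.32) and mitosis (2.17) lists above it. With log2 brightness as a covariate 1401 genes were called, 595 higher and 806 lower, and 1093 of them were also called without it in the same direction. Without WT vehicle arrays 1 and 3, the dim ones, 3173 genes were called, 2711 of them also called with all arrays in the same direction.

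By the same test, 41 genes (0.424%; 30 higher or 0.31%, 11 lower or 0.114%) were called between Jak2VF vehicle and WT vehicle cells. That count was unstable, with 16 to 404 genes when 1 array was left out, the most without WT vehicle array 4, 249 without WT vehicle array 2, and the fewest without Jak2VF vehicle array 4. Between Jak2VF interferon and Jak2VF vehicle cells 1546 were called (16%; 630 higher or 6.51%, 916 lower or 9.46%). The 3 comparisons share arrays in pairs and are therefore set side by side. Of the 4381 genes called between Jak2VF interferon and WT vehicle cells, 1487 were also called in the same direction for interferon in the mutant and 39 for genotype without interferon. For 2871 neither single step was called. The interferon step was the larger in 2744 of the 4381 (62.6%), in 1266 of the higher genes (55.1%) and 1478 of the lower genes (70.9%).

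**Figure D2:**
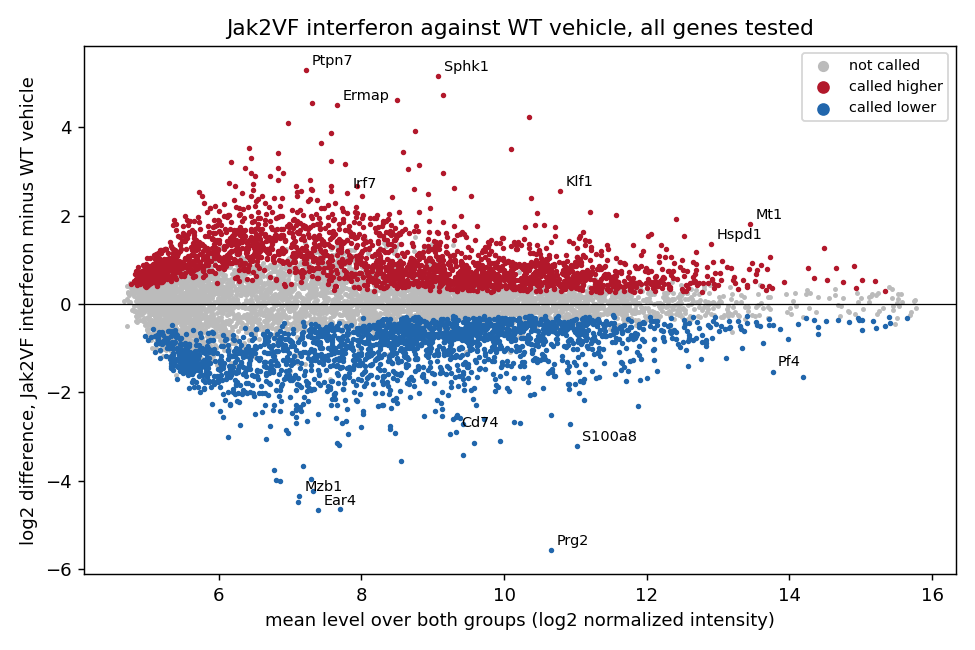
Log2 difference of Jak2VF interferon minus WT vehicle (y axis) against the mean log2 normalized intensity of both groups (x axis) for 9680 genes, each a point, with 2297 called higher in red, 2084 called lower in blue and the rest in grey. Calls occur at every level, from 32.3% of the 2420 genes of lowest intensity to 52% of the 2420 of highest intensity, and the extremes are Ptpn7 at 5.30 and Prg2 at -5.57.

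Red cell genes were among the highest of the 26 gene lists by median difference. They stood first after background correction and quantile normalization together. They stood behind the Myc target list with quantile normalization but no background correction (0.667 against 0.742). The same held in the authors' processed values (0.764 against 0.775) and with either centring. Of 30 measured genes of the erythroid membrane, haem synthesis and globins, 18 were higher and 2 lower in Jak2VF interferon than in WT vehicle cells, with a median log2 difference of 1.13 against 0.05 for all genes. The 2 lower ones were Hbb-b1, an adult beta globin with near-identical copies, at -0.999 (limma adjusted p = 0.028), and Slc25a37, the mitochondrial iron importer mitoferrin, at -0.78 (limma adjusted p = 0.0102), both named after their values were seen. In Jak2VF vehicle cells the median for the same genes was 0.42, and 3 were called. Kel, the Kell blood group metalloprotease of the red cell surface, had log2 intensities of 8.97, 9.18, 9.26 and 9.61 in Jak2VF interferon cells, 7.40, 7.62, 6.69 and 7.55 in Jak2VF vehicle cells, and 5.59, 5.76, 5.17 and 5.95 in WT vehicle cells. Its 3 groups formed separate steps, 1.94 apart between the mutant groups and 1.70 between the untreated genotypes, which add to 3.64 (SE 0.32, limma adjusted p = 4.28e-06). The promoter of Kel is shown because it holds the GATA core AGATAA, the element bound by the erythroid factor Gata1. It is the RefSeq sequence of GRCm38.p6, chr6:41704276-41704575 on the minus strand, from 250 bases before to 50 after the gene's start, with AGATAA in capitals.
Kel: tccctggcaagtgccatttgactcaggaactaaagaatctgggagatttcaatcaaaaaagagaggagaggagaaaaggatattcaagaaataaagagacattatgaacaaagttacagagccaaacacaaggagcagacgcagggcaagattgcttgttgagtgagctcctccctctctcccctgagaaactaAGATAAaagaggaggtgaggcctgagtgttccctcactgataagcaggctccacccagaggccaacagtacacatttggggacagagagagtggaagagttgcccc
Searched on both strands, AGATAA was in 5 of 21 promoters of erythroid genes called higher (23.8%), in 8.24% of those of all genes called higher, in 9.49% of those called lower, and in 8.28% of the 7568 tested genes with a promoter sequence. The CACCC box CCACACCC, an element of the kind bound by Klf1, was in 0 of the same 21 promoters and in 4.56% of all.

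Ermap, an erythroblast membrane protein, had 9.73, 9.87, 9.76 and 10.28 in Jak2VF interferon cells, 7.36, 7.999, 6.93 and 8.05 in Jak2VF vehicle cells, and 5.62, 5.25, 5.60 and 5.15 in WT vehicle cells. It was above background on no WT vehicle array, so that it was at least 15.99-fold higher in Jak2VF interferon cells (limma adjusted p = 7.11e-06). Such bounds set the mean of the bright group against the dimmest level that the arrays of the other could detect. Rhag, the Rh-associated glycoprotein, was likewise undetected in WT vehicle cells and at least 4.84-fold higher (limma adjusted p = 1.62e-05). Ank1, which ties the membrane to the spectrin skeleton, averaged 9.02 ± 0.40 in Jak2VF interferon and 4.92 ± 0.66 in WT vehicle cells (SD, n = 4 each), where 1 of 4 WT vehicle arrays detected it. Tspo2, an erythroid member of the translocator protein family, rose by 3.87 (SE 0.37). Sphk1, which makes the lipid signal sphingosine-1-phosphate, had 11.83, 11.48, 11.34 and 11.97 in Jak2VF interferon cells, 8.89, 9.34, 8.43 and 9.23 in Jak2VF vehicle cells, and 7.87, 6.97, 4.86 and 6.30 in WT vehicle cells. It rose 35.7-fold (SE 0.47 on the log2 scale, limma adjusted p = 6.19e-06), with the WT vehicle arrays spread over 3 log2 units and the treated mutant arrays close together. Slc38a5, an amino acid transporter, rose by 4.74 and Col5a1, a collagen chain, by 4.61. Atp1b2, a sodium pump subunit, was at least 12.8-fold higher.

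Among 14 erythroid transcription factors and the erythropoietin receptor, 6 were higher and 1 lower, with a median of 0.35. Klf1, the factor that switches on adult globin and membrane genes, had 12.15, 12.02, 11.84 and 12.26 in Jak2VF interferon cells, 10.58, 10.92, 10.35 and 11.03 in Jak2VF vehicle cells, and 9.74, 9.66, 9.15 and 9.49 in WT vehicle cells. Its groups did not overlap, and it rose 5.89-fold (SE 0.19 on the log2 scale, limma adjusted p = 1.06e-06). Epor, the erythropoietin receptor, averaged 9.18 ± 0.16 in Jak2VF interferon and 7.74 ± 0.36 in WT vehicle cells (SD, n = 4 each), 2.73-fold higher with a limma adjusted p of 0.00022. Gata1 had 9.11, 9.44, 9.26 and 9.44 in Jak2VF interferon cells against 7.85, 8.61, 5.39 and 8.20 in WT vehicle cells. Its difference of 1.80 (limma adjusted p = 0.0125) rested in part on the third WT vehicle array, and was 0.91 without WT vehicle arrays 1 and 3 and 0.65 with brightness as a covariate (limma adjusted p = 0.618). With that covariate the erythroid membrane list had 13 higher and 0 lower, while the factor list had 3 higher and 2 lower and a median of -0.09. The summed linear intensity of 4 erythroid markers was 5040 to 6880 in Jak2VF interferon cells, 1480 to 2460 in Jak2VF vehicle cells and 712 to 954 in WT vehicle cells. In bulk RNA a larger share of erythroid cells and more erythroid RNA per cell cannot be told apart.

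**Figure D3:**
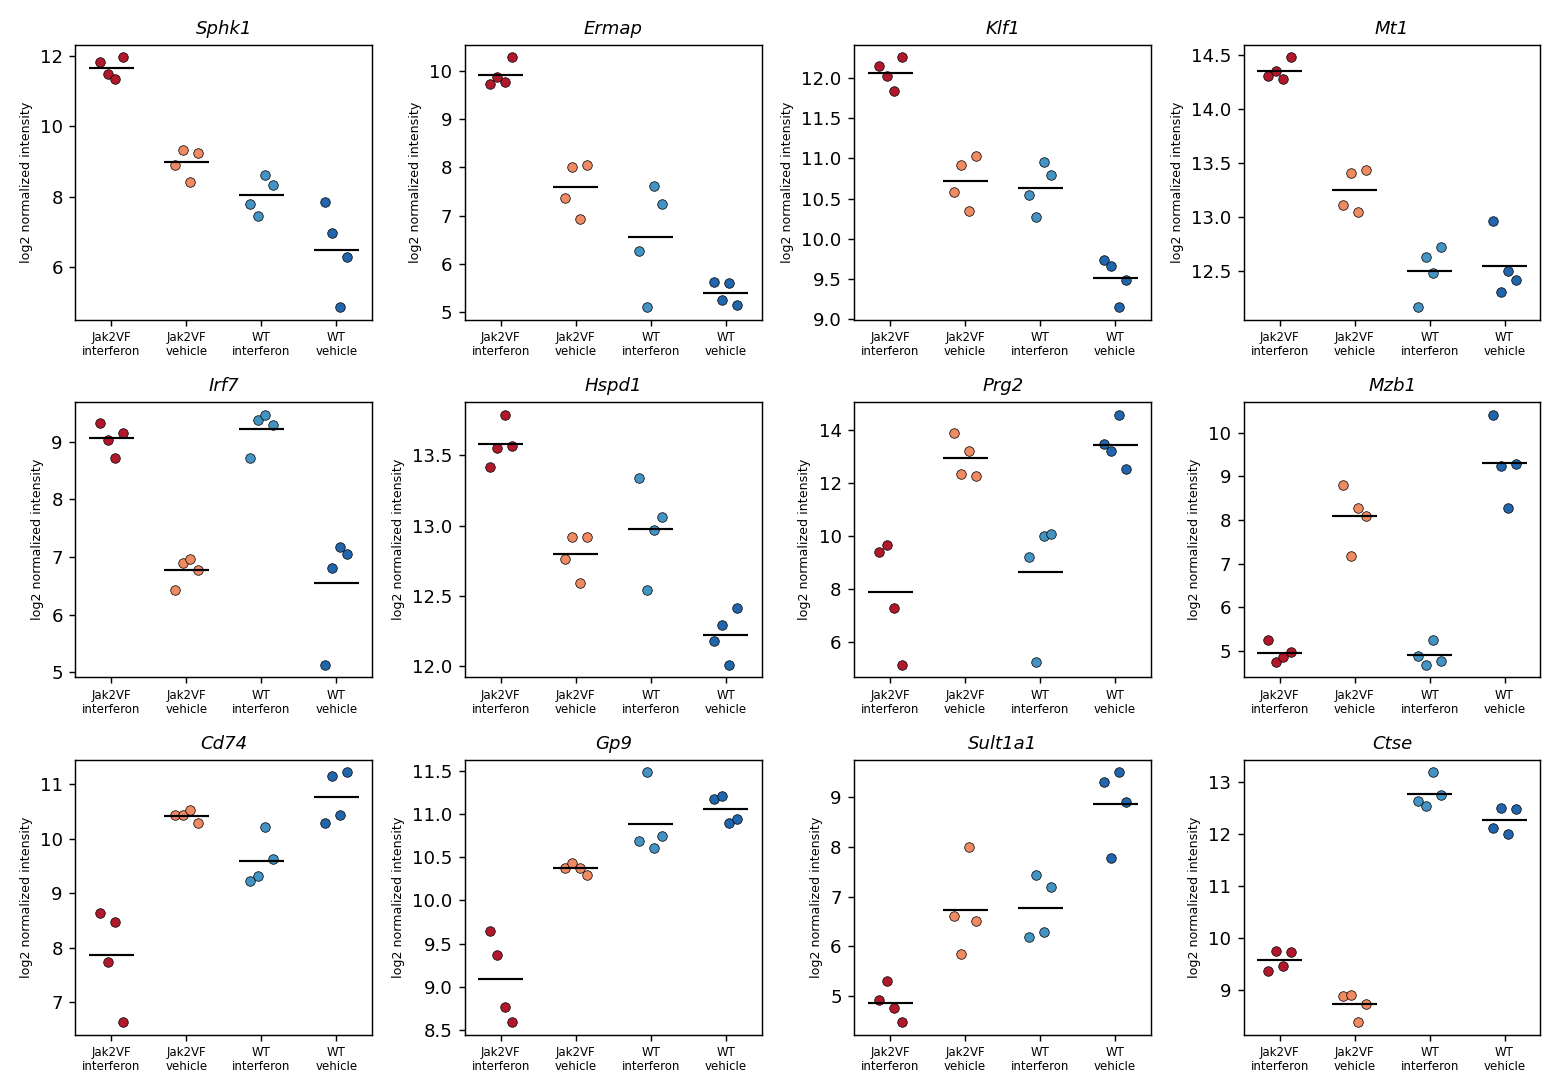
Log2 normalized intensity (y axis) of 12 genes on each array of the 4 groups, with bars at the group means. With WT interferon set aside, Sphk1, Ermap, Klf1 and Hspd1 are highest in Jak2VF interferon, intermediate in Jak2VF vehicle and lowest in WT vehicle cells. Prg2, Mzb1, Cd74, Gp9 and Sult1a1 are lower in Jak2VF interferon than in Jak2VF vehicle and WT vehicle cells. Mzb1 averages 4.95 in Jak2VF interferon and 4.90 in WT interferon cells. Irf7 averages 9.05 with interferon and 6.77 without it in Jak2VF cells, against 6.55 in WT vehicle cells.

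Platelet lineage genes went the other way. Of 23 megakaryocyte and platelet genes 17 were lower and 0 higher in Jak2VF interferon than in WT vehicle cells, with a median of -1.27, against -0.41 and 0 calls for Jak2VF vehicle cells. Gp9, a chain of the platelet receptor for von Willebrand factor, had 9.65, 9.37, 8.77 and 8.59 in Jak2VF interferon cells, 10.38, 10.43, 10.38 and 10.30 in Jak2VF vehicle cells, and 11.18, 11.21, 10.90 and 10.95 in WT vehicle cells. The 3 groups did not overlap and the treated mutant arrays were lowest, 3.91-fold under WT vehicle (SE 0.23 on the log2 scale, limma adjusted p = 2.64e-05). Selp, P-selectin of platelet granules, fell by 2.06 (SE 0.21), and Itga2b, the platelet integrin chain, fell by 1.82 (SE 0.22). Pf4, platelet factor 4, had 13.75, 13.52, 12.58 and 12.15 in Jak2VF interferon cells against 14.55, 14.75, 14.40 and 14.43 in WT vehicle cells. Its difference of -1.53 (limma adjusted p = 0.000566) was -1.29 with brightness as a covariate (limma adjusted p = 0.0558), under which 12 of the 23 genes were called lower. Centred on all probes the list's median was 0.37, below the 1.43 of all genes. The sum of 4 megakaryocyte markers was 5850 to 16400 in Jak2VF interferon cells, 18500 to 23000 in Jak2VF vehicle cells and 27000 to 35700 in WT vehicle cells, without overlap.

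Stem cell genes were lower as a group. Of 37 measured, 22 were lower and 0 higher in Jak2VF interferon than in WT vehicle cells, with a median of -0.99, against -0.37 and 1 lower call for Jak2VF vehicle cells. Sult1a1, a sulfotransferase of the list, had 4.92, 5.30, 4.76 and 4.47 in Jak2VF interferon cells, 6.60, 5.85, 7.995 and 6.51 in Jak2VF vehicle cells, and 9.31, 7.77, 9.51 and 8.90 in WT vehicle cells. It was above background on 1 of 4 Jak2VF interferon arrays and, with the other 3 at their measured values, 16.1-fold lower (SE 0.45 on the log2 scale, limma adjusted p = 2.4e-05). Ndn, necdin, a growth suppressor of quiescent stem cells, fell by 3.67 (SE 0.42), and Robo4, a guidance receptor of stem and endothelial cells, fell by 3.19 (SE 0.36). Cd34, the stem and progenitor surface marker, had 7.03, 7.56, 7.43 and 6.70 in Jak2VF interferon cells, 9.47, 8.59, 9.12 and 8.13 in Jak2VF vehicle cells, and 9.26, 9.18, 9.21 and 9.15 in WT vehicle cells. Of these 3 groups the treated mutant arrays were the low ones, 4.05-fold under WT vehicle (limma adjusted p = 3.23e-05). Ly6a, which encodes the stem cell antigen Sca-1, averaged 10.44 ± 0.34 in Jak2VF interferon and 11.64 ± 0.21 in WT vehicle cells (SD, n = 4 each), a difference of -1.20. With brightness as a covariate 16 of the 37 were called lower and 0 higher. Of 6 measured stem cell markers, 3 were lower and 0 higher, and their sum was 1480 to 2370 in Jak2VF interferon cells against 3660 to 4870 in WT vehicle cells. Ly6a is the brightest of the 6 and weighs most in that sum. Slamf1 went the other way, at 0.96, and did not pass (limma adjusted p = 0.0803). Hlf, called lower, was detected on 0 Jak2VF interferon arrays and 3 WT vehicle arrays. Procr, 1 of the 6, was detected on 0 Jak2VF interferon arrays and 1 WT vehicle array.

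Most genes that hold the cell cycle back did not pass the test. Of 20 quiescence genes and cyclin-dependent kinase inhibitors 7 were lower and 1 higher, with a median of -0.45. Cdkn1c, the inhibitor p57 of dormant stem cells, had 6.94, 6.13, 6.25 and 5.05 in Jak2VF interferon cells against 9.20, 8.71, 10.30 and 8.69 in WT vehicle cells. The groups were well apart and the gene fell by 3.13 (SE 0.50, limma adjusted p = 0.000251), though by 1.32 with brightness as a covariate (limma adjusted p = 0.0707). Klf2, a quiescence factor that is also an immediate early gene, fell by 2.56 (SE 0.47). Among 21 immediate early genes, which answer stimulation and also tissue handling, 13 were lower and 1, Myc, higher, with a median of -1.01, and with the covariate 7 were called lower and 0 higher.

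Most Myc targets and ribosome biogenesis genes were higher. Of 31 Myc targets and ribosome biogenesis genes 24 were higher and 0 lower in Jak2VF interferon than in WT vehicle cells, with a median of 0.82, against 0.32 and 0 calls in Jak2VF vehicle cells. Hspd1, a mitochondrial chaperonin, had 13.42, 13.55, 13.79 and 13.57 in Jak2VF interferon cells, 12.76, 12.92, 12.59 and 12.92 in Jak2VF vehicle cells, and 12.18, 12.29, 12.01 and 12.41 in WT vehicle cells. It rose 2.56-fold (SE 0.16 on the log2 scale, limma adjusted p = 2.95e-05), with 3 separate levels, and by 0.79 in log2 with brightness as a covariate. Srm, spermidine synthase, rose 2.36-fold (SE 0.17 on the log2 scale). Myc itself had 7.77, 8.32, 8.53 and 9.11 in Jak2VF interferon cells against 4.74, 7.27, 4.79 and 7.53 in WT vehicle cells. It was detected on 2 of 4 WT vehicle arrays, and its difference of 2.34 (limma adjusted p = 0.00489) was 1.03 without the dim WT vehicle arrays 1 and 3 (limma adjusted p = 0.0556). With the covariate 13 of the 31 genes were called higher and 0 lower.

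Of 29 genes of G2 and mitosis 15 were higher and 1 lower, with a median of 0.41, and of 34 replication and G1/S genes 13 were higher and 5 lower, with a median of 0.14. Ccne1, cyclin E1 of the entry into S phase, averaged 7.96 ± 0.35 in Jak2VF interferon and 5.07 ± 0.75 in WT vehicle cells (SD, n = 4 each), a rise of 2.89 (SE 0.40, limma adjusted p = 9.42e-05). Top2a, the topoisomerase of dividing cells, had 10.34, 10.68, 10.88 and 11.11 in Jak2VF interferon cells against 9.03, 10.16, 8.33 and 10.19 in WT vehicle cells. The dim WT vehicle arrays 1 and 3 were the low ones, and the difference of 1.33 was 0.58 without them (limma adjusted p = 0.109). Bub1b, a spindle checkpoint kinase, had 9.02, 8.99, 9.27 and 9.12 against 8.18, 8.60, 4.49 and 8.19, so that its 1.74 rested on WT vehicle array 3 and was 0.78 without it. With brightness as a covariate 0 of the 29 G2 and mitosis genes were called, with a median of 0.22, and 1 of the 34 replication genes was higher and 2 lower.

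Interferon-stimulated antiviral genes rose in part. Of 44 measured 16 were higher (36.4%) and 4 lower (9.09%) than in WT vehicle cells, against 23.7% and 21.5% of all genes tested. The median was 0.27, against -0.13 and 0 calls in Jak2VF vehicle cells. In a fit of the Jak2VF interferon and WT vehicle arrays alone 9 were higher and 2 lower, against 1608 and 1559 of all 9680 genes. Irf7, the factor that amplifies the interferon response, had 9.32, 9.04, 8.72 and 9.15 in Jak2VF interferon cells, 6.43, 6.90, 6.96 and 6.78 in Jak2VF vehicle cells, and 5.14, 6.82, 7.18 and 7.06 in WT vehicle cells. Untreated cells of both genotypes overlapped and treated mutant cells lay above all of them, 5.68-fold over WT vehicle (SE 0.35 on the log2 scale, limma adjusted p = 9.7e-05). Oasl1, an oligoadenylate synthetase-like protein, rose 4.04-fold (SE 0.26 on the log2 scale) and Ifi27l2a, an interferon-induced mitochondrial protein, 3.45-fold (SE 0.46). The Ifi27l2a groups overlapped, and its log2 difference was 2.505 on slide 1 and 1.072 on slide 2 (limma adjusted p = 0.346). Isg15, the ubiquitin-like modifier, had 9.67, 8.77, 8.61 and 9.84 in Jak2VF interferon cells, 8.08, 7.95, 8.51 and 8.29 in Jak2VF vehicle cells, and 8.71, 8.16, 8.85 and 8.32 in WT vehicle cells. The treated mutant and WT vehicle arrays overlapped, and the difference of 0.71 (limma adjusted p = 0.0432) did not pass in 9 of 16 fits that each left out 1 array, nor in a fit of these 8 arrays alone (limma adjusted p = 0.112). Oas1g, an oligoadenylate synthetase with near-identical copies that the probe may also read, had 10.62, 10.44, 10.46 and 10.90 in Jak2VF interferon cells, 9.89, 9.67, 9.74 and 9.84 in Jak2VF vehicle cells, and 9.73, 9.84, 9.47 and 9.78 in WT vehicle cells. It rose 1.87-fold (SE 0.13 on the log2 scale, limma adjusted p = 0.000115), with untreated cells of both genotypes at one level.

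The promoters of these genes are shown because they hold GAAANNGAAA, the core of the interferon-stimulated response element bound by the transcription factors that interferon activates. They are RefSeq sequences of GRCm38.p6 on the minus strand, chr5:120887564-120887863 for Oas1g and chr4:156200769-156201068 for Isg15, with overlapping matches joined in capitals.
Oas1g: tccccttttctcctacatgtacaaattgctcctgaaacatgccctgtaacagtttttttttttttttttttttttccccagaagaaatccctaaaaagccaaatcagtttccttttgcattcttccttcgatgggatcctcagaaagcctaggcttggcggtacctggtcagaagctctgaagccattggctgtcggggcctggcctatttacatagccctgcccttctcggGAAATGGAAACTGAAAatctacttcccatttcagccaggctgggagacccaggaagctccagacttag
Isg15: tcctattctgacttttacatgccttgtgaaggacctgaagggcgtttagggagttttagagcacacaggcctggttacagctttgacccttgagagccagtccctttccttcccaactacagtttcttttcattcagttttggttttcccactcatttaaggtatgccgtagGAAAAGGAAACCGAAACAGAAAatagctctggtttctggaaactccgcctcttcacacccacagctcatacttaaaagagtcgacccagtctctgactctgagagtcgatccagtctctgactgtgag
Searched on both strands, the element was in 3.82% of the 7568 promoters of tested genes and in 3.4% of those of genes called higher. It was in 3 of 12 promoters of listed antiviral genes called higher (25%) and in 10 of 21 of those not called higher (47.6%). A match of letters is a description and not a binding site.

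Antigen presentation genes were lower after quantile normalization. All 8 called of 9 MHC class II genes were lower in Jak2VF interferon than in WT vehicle cells, with a median of -1.81, against -0.26 and 0 calls in Jak2VF vehicle cells. Cd74, the invariant chain that escorts class II molecules, had 8.63, 7.74, 8.47 and 6.63 in Jak2VF interferon cells, 10.43, 10.43, 10.53 and 10.28 in Jak2VF vehicle cells, and 10.29, 11.14, 10.44 and 11.22 in WT vehicle cells. The treated mutant arrays were apart from the untreated arrays of both genotypes, 7.49-fold under WT vehicle (SE 0.37 on the log2 scale, limma adjusted p = 4.75e-05). H2-Aa, a class II chain, fell by 2.70 (SE 0.30), and H2-DMb1, which loads peptides, by 2.14 (SE 0.18). With the covariate 7 of the 9 were called lower. Of 17 class I and immunoproteasome genes 7 were lower and 0 higher, with a median of -0.34. Psmb8, an immunoproteasome subunit, averaged 9.39 ± 0.38 in Jak2VF interferon and 10.80 ± 0.34 in WT vehicle cells (SD, n = 4 each), a difference of -1.41 that was -0.23 with the covariate (limma adjusted p = 0.549). Of 10 immunity GTPases, 4 were lower and 1 higher, with Irgm2 at -1.57 (SE 0.33) and Gvin1 at -1.47 (SE 0.24). Centred on all probes, class I and GTPase medians were 1.34 and 0.995, below the 1.43 of all genes but above 0.

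**Figure D4:**
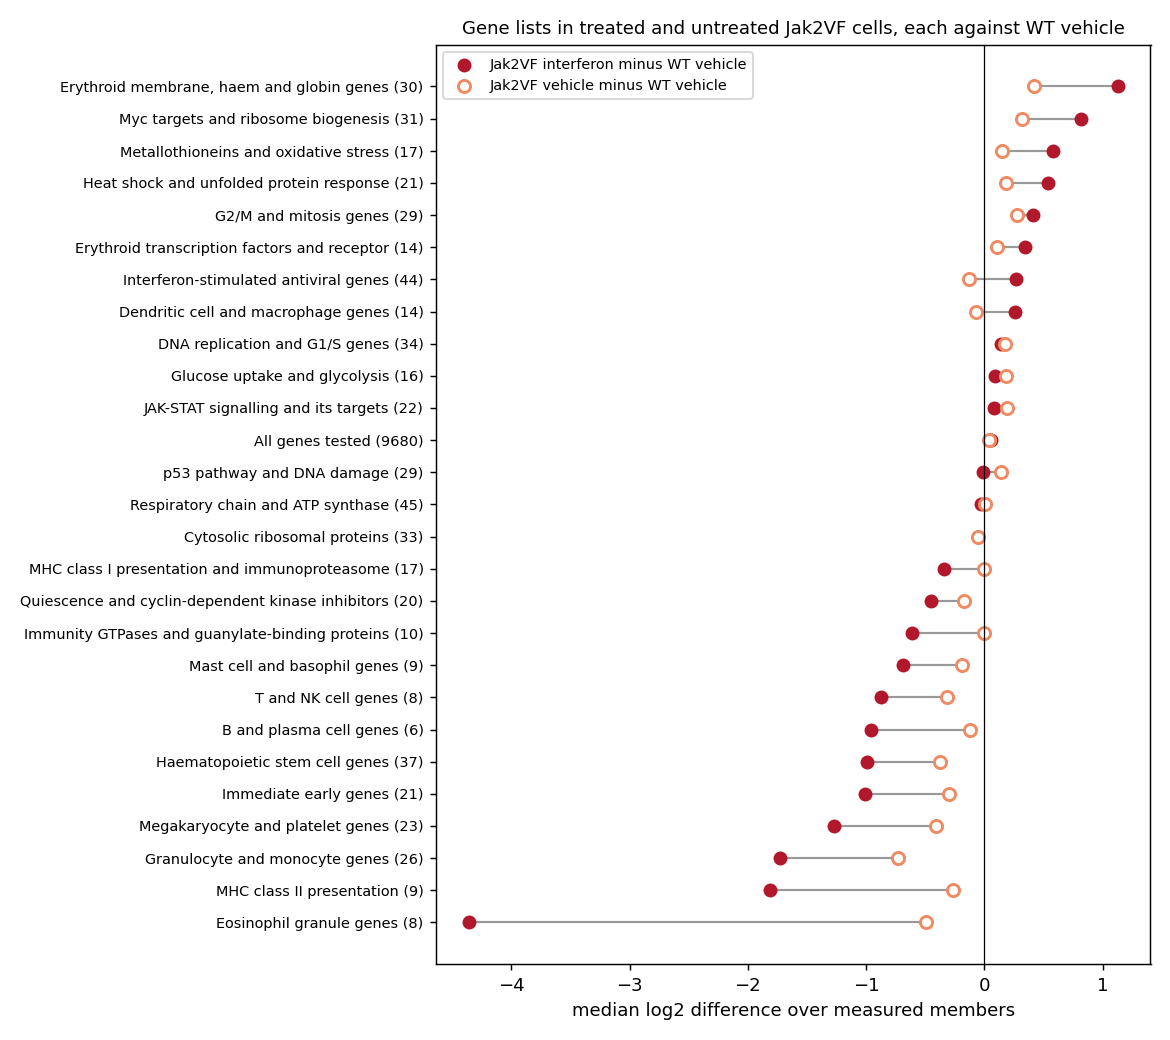
Median log2 difference from WT vehicle over the measured members of each of 26 gene lists and of all 9680 genes, with filled points for Jak2VF interferon and open points for Jak2VF vehicle, which share the WT vehicle arrays. The number measured is in parentheses. Filled points run from -4.36 for eosinophil granule genes to 1.13 for erythroid membrane, haem and globin genes, and open points from -0.73 to 0.42.

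Many granulocyte genes were lower, eosinophil granule genes above all. All 8 measured eosinophil granule genes were lower in Jak2VF interferon than in WT vehicle cells, with a median of -4.36, against -0.50 and 0 calls in Jak2VF vehicle cells. Prg2, the major basic protein, had 9.38, 9.66, 7.29 and 5.15 in Jak2VF interferon cells, 13.90, 12.34, 13.19 and 12.28 in Jak2VF vehicle cells, and 13.46, 13.20, 14.58 and 12.53 in WT vehicle cells. Untreated cells of both genotypes had it among their bright transcripts, and treated mutant arrays ranged widely beneath them, 47.6-fold under WT vehicle on average (SE 1.06 on the log2 scale, limma adjusted p = 0.000942). Epx, eosinophil peroxidase, was 15.6-fold lower (SE 0.48 on the log2 scale) and was detected on 2 of 4 Jak2VF interferon arrays. The list's Ear genes are near-identical copies that a probe may not tell apart, so the 8 readings are not 8 separate ones. The sum of 4 eosinophil markers was 124 to 975 in Jak2VF interferon cells, 6090 to 18400 in Jak2VF vehicle cells and 6980 to 31900 in WT vehicle cells. All 8 genes stayed lower with brightness as a covariate and without WT vehicle arrays 1 and 3, with medians of -3.53 in both.

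Of 26 granulocyte and monocyte genes 19 were lower and 0 higher, with a median of -1.73, against -0.73 and 0 calls in Jak2VF vehicle cells. S100a8, a calcium-binding protein of neutrophils, had 9.31, 9.53, 9.28 and 9.53 in Jak2VF interferon cells, 13.52, 10.55, 11.82 and 11.45 in Jak2VF vehicle cells, and 14.12, 11.69, 13.03 and 11.70 in WT vehicle cells. Treated mutant arrays agreed closely while untreated arrays of both genotypes varied from array to array. The gene was 9.33-fold lower (SE 0.66 on the log2 scale, limma adjusted p = 0.00155), and did not pass with brightness as a covariate (limma adjusted p = 0.1), where 4 of the 26 genes were lower. Summed over 6 neutrophil and monocyte markers, intensity was 1100 to 1230 in Jak2VF interferon cells, 2270 to 17700 in Jak2VF vehicle cells and 4380 to 26500 in WT vehicle cells. S100a8 and S100a9 are the brightest of the 6 and weigh most in that sum. Only 3 of the 6 were called lower, and Camp (-1.27), Csf1r (-0.88) and Ngp (-0.04) were not called.

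Plasma cell transcripts were lost from view. Mzb1, a chaperone of antibody-making cells, had 5.25, 4.74, 4.87 and 4.97 in Jak2VF interferon cells, 8.80, 7.17, 8.28 and 8.10 in Jak2VF vehicle cells, and 10.41, 9.25, 8.28 and 9.29 in WT vehicle cells. It was above background on no Jak2VF interferon array and at least 17.2-fold lower than in WT vehicle cells (limma adjusted p = 4.28e-06). Jchain, which joins polymeric antibodies, was at least 3.59-fold lower by the same bound (limma adjusted p = 0.000286). Of 6 measured B and plasma cell genes 4 were lower and 0 higher, and the summed intensity of 3 markers was 82.5 to 126 in Jak2VF interferon cells, 221 to 637 in Jak2VF vehicle cells and 652 to 1520 in WT vehicle cells. The B cell marker Cd79a and the T cell markers Cd3e, Cd3g and Cd8a were detected on at most 2 of the 16 arrays and were not tested. Of 8 T and NK cell genes 5 were lower and 0 higher, led by Ltb, lymphotoxin beta, at -2.59 (SE 0.31). The macrophage markers summed to 134 to 214 in Jak2VF interferon cells and 146 to 325 in WT vehicle cells, and overlapped. How far the mature-cell markers bear on the erythroid, platelet and stem cell differences was not tested.

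Of 22 genes of Jak-STAT signalling and its targets 6 were lower and 3 higher, with a median of 0.08. That is 27.3% lower and 13.6% higher, against 21.5% and 23.7% of all genes tested. Socs3, the feedback inhibitor of Jak kinases, had 5.22, 6.60, 6.15 and 5.11 in Jak2VF interferon cells, 7.89, 7.28, 6.81 and 7.09 in Jak2VF vehicle cells, and 8.01, 7.67, 8.18 and 8.001 in WT vehicle cells, and was 4.57-fold lower (SE 0.34 on the log2 scale, limma adjusted p = 0.000228). Jak2 itself had 8.60, 8.66, 9.33 and 9.21 in Jak2VF interferon cells, 8.35, 8.62, 8.02 and 8.71 in Jak2VF vehicle cells, and 8.43, 8.49, 8.32 and 8.53 in WT vehicle cells. The 0.51 between treated mutant and WT vehicle cells missed the threshold (limma adjusted p = 0.0693). A transcript level cannot tell the mutant allele from the normal one, so it does not check the genotype labels.

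Some stress genes were called. Of 17 metallothionein and oxidative stress genes 8 were higher and 0 lower, with a median of 0.58. Mt1, a metal-binding metallothionein, had 14.31, 14.35, 14.28 and 14.48 in Jak2VF interferon cells, 13.11, 13.41, 13.05 and 13.44 in Jak2VF vehicle cells, and 12.97, 12.31, 12.50 and 12.42 in WT vehicle cells. It rose 3.49-fold (SE 0.16 on the log2 scale, limma adjusted p = 5e-06), and Mt2 8.43-fold (SE 0.37), with 1 WT vehicle array above background and the other 3 at their measured values. Of 21 heat shock and unfolded protein response genes 9 were higher and 3 lower, with a median of 0.54 that was -0.01 with brightness as a covariate. Asns, asparagine synthetase, rose 2.70-fold (SE 0.17 on the log2 scale). Trib3, a stress pseudokinase and like Asns a known target of ATF4, fell by 1.78 (SE 0.33), and its -0.95 with the covariate did not pass (limma adjusted p = 0.165).

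Glycolysis and p53 lists held shares of called genes not far from the 23.7% higher and 21.5% lower of all genes. The respiratory chain list had 22.2% higher and 13.3% lower, and the ribosomal list 6.06% and 24.2%. The mast cell list had 22.2% higher and 44.4% lower, and the dendritic cell list 28.6% and 14.3%. All are given as values only. Of 45 respiratory chain genes 10 were higher and 6 lower with a median of -0.03, led by Cyc1, cytochrome c1, at 1.45 (SE 0.23). Of 33 cytosolic ribosomal protein genes 2 were higher and 8 lower with a median of -0.05, and Rps2 at 0.53 and Rps27 at -0.58 went opposite ways. Centring on detected probes turned Rps2 to -0.38 and the ribosomal list to 2 higher and 22 lower. Of 16 glucose uptake and glycolysis genes 4 were higher and 3 lower, with Hk1, hexokinase 1, at 2.01 (SE 0.48; 0.21 with brightness as a covariate, limma adjusted p = 0.793) and Slc2a1, the glucose transporter Glut1, at -1.11 (SE 0.15). Of 29 p53 pathway and DNA damage genes 7 were higher and 7 lower, with Zmat3, a p53 target, at 2.10 (SE 0.30) and Tnfrsf10b, a death receptor, at -1.65 (SE 0.49; 0.44 with the covariate, limma adjusted p = 0.221). Of 9 mast cell and basophil genes 4 were lower and 2 higher: Fcer1a, a chain of the IgE receptor, was at -1.70 (SE 0.32) and Il1rl1, the IL-33 receptor, at 2.07 (SE 0.31). Of 14 dendritic cell and macrophage genes 4 were higher and 2 lower, and Slc40a1, the iron exporter ferroportin, which erythroid cells also make, was at 3.16 (SE 0.32).

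Whether genes that set untreated mutant apart from WT cells came back with interferon was read from the 41 called between Jak2VF vehicle and WT vehicle cells. They were chosen by that contrast, whose Jak2VF vehicle and WT vehicle arrays also enter each position given here, so the positions are descriptions with no test. With interferon 35 of the 41 lay farther from WT vehicle, 6 nearer and 0 on the other side of it. Of the 41, 19 were called between Jak2VF interferon and Jak2VF vehicle cells, against 1546 of all 9680 genes (16%). For the others a position can rest on a small step. The median absolute difference was 2.25 for Jak2VF interferon and 1.47 for Jak2VF vehicle cells, each against WT vehicle, and 39 of the 41 were called in the treated contrast. Over all 9680 genes, 6524 lay farther from WT vehicle with interferon, 1532 nearer and 1624 on the other side of it. A smaller absolute difference from WT vehicle in treated than in untreated mutant cells was found for 2106 of the 9680 (21.8%) and for 6 of the 41 (14.6%). The 6 nearer genes were Ptpn7, Ctse, Emp1, Clec2i, Osr1 and Senp5. Of these, Ctse, Emp1 and Clec2i were called between treated and untreated mutant cells. Ptpn7 (a step of -0.04), Osr1 (-0.13) and Senp5 (-0.11) were not. Emp1, an epithelial membrane protein, stood at 0.35 from WT vehicle with interferon and at 1.58 without it. Clec2i, a C-type lectin, stood at 0.19 with interferon and at 1.10 without it. Ctse, cathepsin E, had 9.35, 9.75, 9.46 and 9.72 in Jak2VF interferon cells, 8.87, 8.89, 8.37 and 8.73 in Jak2VF vehicle cells, and 12.12, 12.50, 12 and 12.49 in WT vehicle cells. The treated mutant arrays lay between the other groups, nearer to Jak2VF vehicle than to WT vehicle.

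Ptpn7, a tyrosine phosphatase of blood cells, had 10.08, 10.03, 9.51 and 9.86 in Jak2VF interferon cells, 9.86, 9.69, 10.16 and 9.95 in Jak2VF vehicle cells, and 4.60, 4.58, 4.51 and 4.60 in WT vehicle cells. The mutant groups overlapped and the gene was above background on no WT vehicle array, so that Jak2VF interferon cells were at least 15.6-fold higher (limma adjusted p = 8.91e-12). Chil1, a chitinase-like protein, went the other way, at least 5.41-fold lower in Jak2VF interferon cells (limma adjusted p = 4.12e-05), and Ptprv, a receptor phosphatase, fell by 2.29 (SE 0.18). These and Ctse, Cxcr4, Rnpep and Ptpn14 lie on chromosome 1, which held 7 of the 41 genes (17.1%), 5.48% of genes called in the treated contrast and 5.28% of all tested. Ptprc, which encodes CD45 and also lies on chromosome 1, differed by -0.77 (SE 0.17, limma adjusted p = 0.00234), and by -0.35 with brightness as a covariate (limma adjusted p = 0.306). Because the CD45 allele goes with the genotype, differences near it and differences of the Jak2 mutation cannot be told apart. Cx3cr1, the fractalkine receptor, was at least 4.56-fold higher in Jak2VF interferon than in WT vehicle cells (limma adjusted p = 7e-07), and Cxcr4, the receptor that keeps stem cells in the marrow, was 3.87-fold lower (SE 0.19 on the log2 scale, limma adjusted p = 1.1e-05).

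**Figure D5:**
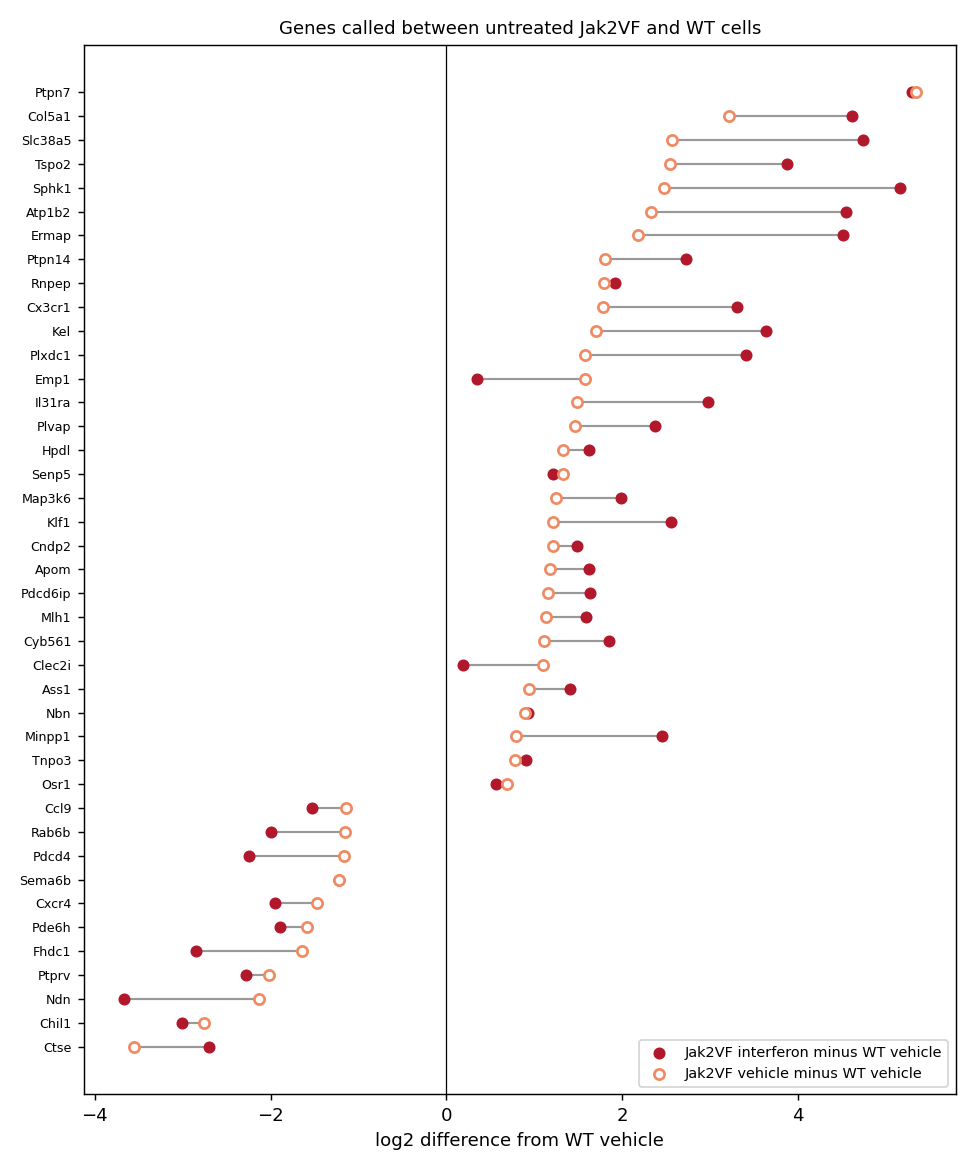
Log2 difference from WT vehicle (x axis) of the 41 genes called between untreated Jak2VF and WT cells, 1 gene per line, with filled points for Jak2VF interferon and open points for Jak2VF vehicle. Filled points lie farther from 0 than open points for 35 genes and nearer for 6, among them Emp1 at 0.35 against 1.58 and Ctse at -2.70 against -3.56, and none crosses 0. Of the 41 genes, 19 were called between Jak2VF interferon and Jak2VF vehicle cells, against 16% of all genes tested.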

How the data were processed

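RNA of 16 arrays was measured by the authors on Illumina bead arrays after PicoPure extraction and TotalPrep amplification, per the labels' protocols. The deposited table gives, per the file headers, an average intensity for 25697 probes on each array on a linear scale, and a detection p-value for each. No source used here gives the scanner software, an earlier background step or a genome build. A further deposited table of intensities processed by the authors served as an alternative, taken to log2 here.

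The neqc function (offset 16) of limma 3.58.1 under R 4.3.3 did background correction, quantile normalization and the log2 step. Probes with a detection p under 0.05 on at least 4 arrays were kept (13374), and the brightest one stood for each of 9680 genes. Of 1807 other probes of called genes, 1419 had the same sign. Symbols were current for 17548 probes and updated through a RefSeq table of GRCm38.p6 for 7082, while 1040 were kept as given and 27 turned into dates were left out.

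All 16 arrays entered 1 linear model of the 4 groups (lmFit, eBayes; 12 residual and 2.73 prior degrees of freedom), with Benjamini-Hochberg adjustment over all genes and a threshold of 0.05. Single values per array were compared by exact permutation. Each of 2 slides held 2 arrays of every group. Replicate numbers count the arrays of a group and pair nothing. The number of arrays limits the precision.

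Genes named were the 12 largest and 12 most negative differences among called genes with separate groups and detection on all arrays of the group that was higher, the 3 largest called members of each of 26 lists (or, with none called, the smallest p), the 10 smallest p-values between untreated genotypes, and Jak2 and Ptprc. Isg15, Oas1g, H2-DMb1, Itga2b, Pf4, Cd34, Ly6a, Emp1, Clec2i, Osr1, Senp5, Rnpep, Ptpn14, Hbb-b1 and Slc25a37 were chosen after their values were seen. The samples, lists and rule were chosen with earlier results of these data known. Some genes the rule selects are not reported here. Background correction, scaling, detection filter, slide, brightness, array weights, the authors' values and leaving out arrays were tried as alternatives.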

Additional observations from a re-analysis of the deposited data

Results flagged for a closer look

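In 16 of 214 groups of 4 arrays checked, the highest or lowest array lay apart from the others by more than Dixon's critical value for the gap to the nearest array over the whole range. Chance sets apart about 1 in 20 such groups, and no cause was tested. All values are log2 intensities.

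Among the Jak2VF interferon arrays, array 4 was low for Robo4 at 4.853, for Ltb at 5.34 and for Slc2a1 at 7.456. Array 2 was high for the eosinophil genes Ear4 at 6.041 and Prg3 at 5.484, and for Zap70, a T cell kinase, at 5.332, with the other arrays near background. Array 3 was low for Tspo2 at 9.035, high for Gvin1 at 10.22 and, at background level, high for Chil1 at 4.647.

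Among the WT vehicle arrays, array 3, the dimmest, was low for Bub1b at 4.489 and Hk1 at 5.326 and high for Zbtb46, a dendritic cell factor, at 6.887. Array 1 was high for Atp1b2 at 5.822, Ptprv at 8.622 and Ier3, an immediate early gene, at 11.75. Array 4 was high for Ank1 at 5.902.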

How the results depend on the processing

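The main count was 4381 called genes, and 3345 to 4609 were called when 1 array was left out, the fewest without Jak2VF interferon array 4 and the most without WT vehicle array 4. Arrays of slide 1 alone called 751 (297 higher, 454 lower) and those of slide 2 alone 1561 (765 higher, 796 lower). Brightness as a covariate gave 1401 (595 and 806). Centring on detected probes gave 2378 higher and 3566 lower. Chosen after seeing the data were centring on all probes, with 6744 called (6585 and 159), and leaving out WT vehicle arrays 1 and 3, with 3173 called, 1456 of them higher. Between the untreated genotypes 41 calls became 19 with centring on detected probes and 18 with the brightness covariate. Leaving out 1 array gave 16 to 404 of these, 1760 to 2470 higher and 1585 to 2150 lower genes of the treated contrast, distance differences of 0.282 to 0.35 and brightness differences of 1.327 to 1.777. The distance difference ran from 0.222 to 0.68 over the scalings, filters and left-out arrays for which it was computed, which do not include the brightness covariate, array weights or the slide block, and was 0.253 and 0.363 within slides, and the brightness difference was 1.184 and 2.012 within slides, with an exact permutation p of 0.333, the smallest 2 against 2 arrays allow. The slide as a block gave 4317 calls. No paired analysis was possible because the replicate numbers only count the arrays of a group.

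Centring on all probes raised the median of all genes to 1.43 and turned the sign of Irgm2 (0.30), Gvin1 (0.43), Gbp2 (0.88), Psmb8 (0.54), Tapbpl (0.71), H2-M3 (1.05), Klf6 (0.49), Fcer1a (0.19), Cd79b (0.45), Siglech (0.69), Rps25 (0.52), Rps27 (0.17), Slc2a1 (0.72), Pkm (0.99), Tnfrsf10b (0.22), Ier3 (0.20), Ptprc (0.99), Itga2b (0.035) and Ly6a (0.68), all below that median. Centring on detected probes, with a median of -0.16, turned Zbtb46 (-0.043), Pttg1 (-0.59) and Rps2 (-0.38). The covariate turned Siglech (0.32), Mcm3 (-0.12), Rps25 (0.070) and Tnfrsf10b (0.44). The causes were not tested beyond the shift of the medians. Background correction sets the scale: without it the median absolute difference of called genes was 0.532, against 0.873 with it. Dim probes limit the lowest levels, since 298 genes called higher were detected on no WT vehicle array and 136 called lower on no Jak2VF interferon array.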
